A study of Schizosaccharomyces pombe with 6 samples.

Results

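The peaks described here are the 59 peaks of CFP-Cnp1 ChIP-seq in WT fission yeast, matched with the peaks of the same ChIP in SUMO-KallR cells. Each WT peak was paired with every SUMO-KallR peak that overlapped it by at least 1 bp. The deposited lists hold 2635 peaks in all, with 59 in WT, 1615 in SUMO-KallR and 961 in an untagged strain. The WT strain carried CFP-cnp1:Kan and the marker alleles ade6-704, leu1-32 and also ura4-D18. The SUMO-KallR strain had the same markers and the same tagged histone together with pmt3-KallR, in which every lysine of SUMO is replaced by arginine so that SUMO can be attached but cannot form chains. This change also removes every other use of those lysines. The untagged strain had the same 3 auxotrophic markers without CFP-cnp1, and was used as the background measured in the same way. Cells were grown exponentially in rich medium with no drug, mixed with budding yeast as a calibrator, fixed, and precipitated with an anti-GFP antibody. Each strain is a single strain with 1 ChIP library, set against 1 input library, so no value below has an error between replicates and no test of a difference was possible. The lists hold no read counts, so the number of reads behind a peak is unknown here. By the read totals in the paper's reporting summary, the WT ChIP library was less deep than both other ChIP libraries, and the part of depth in the differences between the lists was not tested.

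Cnp1 is the fission yeast CENP-A, the histone H3 variant of the nucleosomes on which the kinetochore is built. It is loaded on the central core (cnt) of each centromere and on part of the inverted innermost repeats (imr) beside it. The outer repeats (otr), made of dg and dh units, are packed into heterochromatin by histone H3 methylation and the RNA interference pathway, and tRNA genes lie at several of the borders between these domains.

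The results turn on places where nearly identical sequence occurs several times, so these are shown first, from the RefSeq assembly ASM294v3. In the imr of each chromosome lay the highest summit of both strains. On chromosome I the sequence at the summits is chrI:3776196-3776295, and on chromosome II chrII:1619770-1619939. For chromosome III the left imr is shown at chrIII:1093818-1094116, which holds the SUMO-KallR summit and the position that mirrors the WT summit of the right imr. Capitals mark the stretch from the SUMO-KallR to the WT summit on I, and the 11 bases around each of the 2 positions on II and III. Each of the 3 sequences occurs exactly 2 times in the genome, once in each arm of the inverted repeat.
I summits: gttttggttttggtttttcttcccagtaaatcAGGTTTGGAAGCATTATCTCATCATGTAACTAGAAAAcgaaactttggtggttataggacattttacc
II summits: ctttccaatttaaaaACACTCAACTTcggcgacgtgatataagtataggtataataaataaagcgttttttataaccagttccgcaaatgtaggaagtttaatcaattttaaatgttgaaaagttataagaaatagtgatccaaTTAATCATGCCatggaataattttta
III left imr: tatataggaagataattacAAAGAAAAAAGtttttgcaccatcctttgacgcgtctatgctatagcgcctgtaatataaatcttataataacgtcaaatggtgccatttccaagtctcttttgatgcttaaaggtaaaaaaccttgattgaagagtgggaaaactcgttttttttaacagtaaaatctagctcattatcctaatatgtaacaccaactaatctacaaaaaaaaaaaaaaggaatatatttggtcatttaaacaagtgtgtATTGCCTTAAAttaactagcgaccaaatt

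The last sequence, chrIII:1123684-1123883, is the middle of a stretch of the right otr of III that lay under no peak of any list, and it occurs 3 times in the genome without a mismatch.
Right otr III: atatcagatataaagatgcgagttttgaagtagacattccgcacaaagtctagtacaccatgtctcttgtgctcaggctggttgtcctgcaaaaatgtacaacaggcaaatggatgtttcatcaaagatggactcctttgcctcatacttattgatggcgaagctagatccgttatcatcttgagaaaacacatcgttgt

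Every WT peak had a partner in SUMO-KallR. All 59 WT peaks overlapped exactly 1 SUMO-KallR peak and lay wholly inside it, and of the 140844 bp under WT peaks 0 bp were without a SUMO-KallR peak. This count has to be read against the breadth of the SUMO-KallR list, since 98.7% of the 1 kb windows of the genome overlapped one of its peaks and 80.9% lay wholly inside 1 of them. The untagged list was as broad, with 98.9% of windows overlapped and 88.2% wholly inside a peak. All 59 WT peaks also overlapped an untagged peak, and 42 lay wholly inside one. A floor kept only the 93 SUMO-KallR peaks that rose above the 95th percentile of its peaks on the chromosome arms. With it, 56 of the 59 WT peaks still had a partner, and 8.21% of windows overlapped one of those 93 peaks. No such floor was applied to the untagged list, so whether its highest peaks match as many WT peaks was not tested.

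The lists of the tagged strains differed from the untagged list at the cores. Peaks covered all 15774 bp of the 3 cnt in WT and in SUMO-KallR, and 0 bp in the untagged strain. In the imr the WT peaks covered 98.2%, the SUMO-KallR peaks 98.7% and the untagged peaks 38.7% of the sequence. In the otr the shares were 83.4% for WT, 97.2% for SUMO-KallR and 83.6% for untagged peaks, so that WT and untagged peaks covered similar amounts of the outer repeats. From the ends of the otr to 50 kb from the cnt midpoint, WT peaks covered 8.25%, SUMO-KallR peaks 99.2% and untagged peaks 98%. The gain of SUMO-KallR over WT was thus a small part of the otr and most of the flanks, and on the flanks the untagged list held nearly the same sequence.

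**Figure D1:**
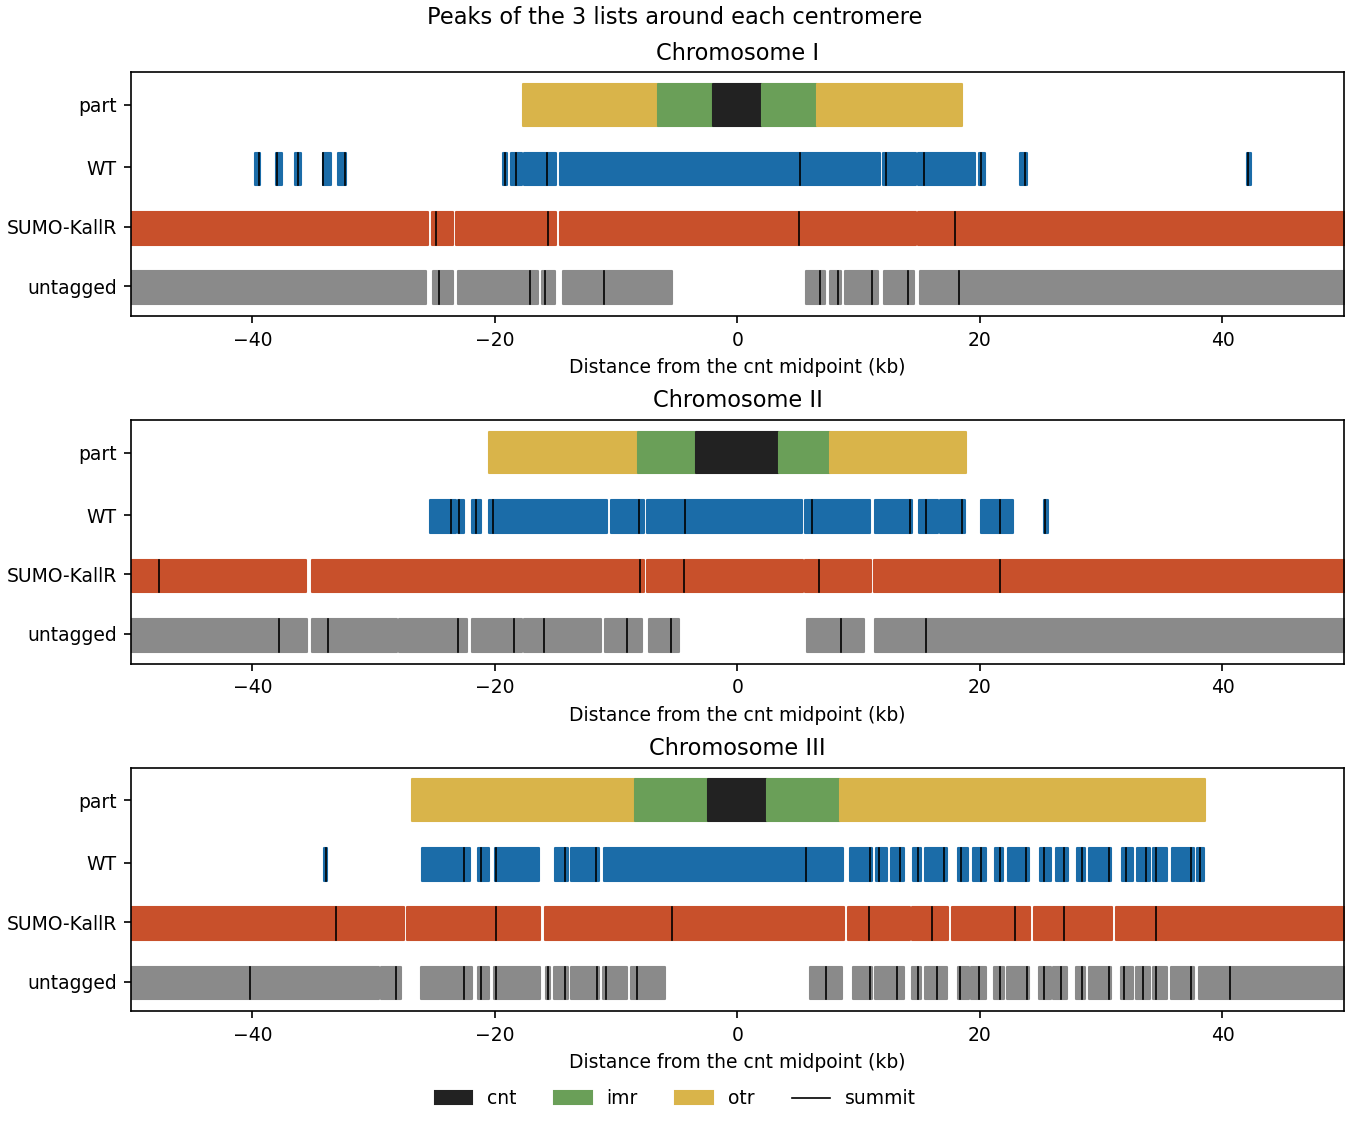
Peaks of the WT, SUMO-KallR and untagged lists against distance from the cnt midpoint in kb, 1 panel per chromosome, with cnt, imr and otr as coloured bars above and a black line at each summit. SUMO-KallR peaks run on from the otr into both flanks, the untagged list is empty over all 3 cnt, and the many short WT peaks of the right otr of III lie inside 5 SUMO-KallR peaks.

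The main difference in shape was that neighbouring WT peaks lay together inside a single SUMO-KallR peak. The 59 WT peaks lay in 22 SUMO-KallR peaks, of which 9 held 1 WT peak and 13 held 2 or more, up to 7. In this way 50 WT peaks shared a SUMO-KallR peak with another one. The count was 24 of 30 with scores at or above the median of each list, 29 of 34 after joining of peaks closer than 500 bp, and 2 of 28 after sequence under untagged peaks was taken out of both lists. After that removal, WT pieces with untagged sequence between them could not share a SUMO-KallR piece, since both lists are cut there. In the untagged list, 49 peaks overlapped WT peaks and 25 WT peaks shared one. The 22 SUMO-KallR peaks had a median width of 13348 bp, from 3007 to 69255 bp, against a median of 4626 bp over their whole list and of 904 bp for the WT peaks.

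On chromosome I, the core peaks of both lists reached far into the otr. The WT peak that covers cnt, both imr and much of the otr ran from 3756509 to 3782866 with a height of 4139.3, rank 1 of its list. Height here is the score of the list divided by 10, by convention the highest −log10 p of the peak, and it was ranked only within a list because it grows with the depth of its library. The SUMO-KallR peak over this domain ran from 3756470 to 3785857, had a height of 4371.2 and rank 2, and also took in the next WT peak on the right. Its left edge lay 39 bp beyond that of the WT core peak. Its right edge lay 2991 bp beyond the WT core peak and 22 bp beyond the next WT peak, and both edges were in the otr. To the left, 3 WT peaks lay inside the SUMO-KallR peak from 3747912 to 3756191, which extended 3903 bp further out and 37 bp inward. To the right, 4 WT peaks lay in the peak from 3786031 to 3846694, whose outer edge was 33245 bp beyond the last of them. The most WT peaks in a single SUMO-KallR peak, 7, were on the left arm of I from 3700540 to 3745628, with the low heights of 1.8 to 5.2 in WT. They sat at ubr11, which encodes a ubiquitin ligase, at SPATRNAVAL.04, and at or near grx2, a glutaredoxin gene, fub1, gua2 and prm1, whose product acts in membrane fusion during mating.

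On chromosome II the SUMO-KallR list also had a break on each side of the core peak, here in the imr. The left break spans a run of 100 undetermined bases, where no read can map. The WT peak over the core, from 1616783 to 1629563 with a height of 3709 and rank 3, lay alone in a SUMO-KallR peak of height 3889.9 and rank 3 whose edges were 51 bp and 27 bp further out. The WT peak from 1629794 to 1635172 also lay alone, with edges 36 bp and 25 bp further out. To the left of the core, 5 WT peaks lay inside the SUMO-KallR peak from 1589088 to 1616500, the outer edge of which was 9751 bp beyond WT. To the right, 5 WT peaks lay in the peak from 1635430 to 1678874, and its outer edge was 29025 bp beyond WT. In the left of these the order of heights changed. In WT the highest of its 5 peaks was at 1600550, beside the tRNA gene SPBTRNAALA.08 outside the otr, with a height of 267, and the one at 1616097 in the left imr had 208.2. In SUMO-KallR the summit of the joined peak, of height 665.1, lay 37 bp from the latter and 15584 bp from the former.

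Chromosome III has the longest otr and had the most WT peaks close together. On the left, 3 WT peaks of the otr lay in the SUMO-KallR peak from 1072206 to 1083216, with edges 1261 bp further out and 57 bp further in toward the core. The central SUMO-KallR peak, from 1083629 to 1108275, had a height of 4789.1, rank 1 of its list, and held 3 WT peaks, the widest of them with a height of 4098.7 and rank 2. In the right otr, 18 WT peaks of 598 to 1865 bp lay in 5 SUMO-KallR peaks that held 3, 2, 4, 4 and 5 of them. The last of these 5 ran on to 1199978, which was 62000 bp beyond the last WT peak and the largest of all edge shifts.

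Between neighbouring WT peaks there were 56 gaps. The SUMO-KallR list closed 37 of them with a single peak, 66.1%, where the untagged list closed 18, 32.1%. Once untagged sequence was taken out, SUMO-KallR closed 1 of 25 gaps. That removal cuts SUMO-KallR peaks wherever an untagged peak lies, so a gap holding untagged sequence could not be closed. Over the whole genome the untagged list held the larger share of 1 kb windows wholly inside a peak, 88.2% against 80.9%. In the otr of III the order was reversed, with 76.4% of the sequence under untagged and 95.8% under SUMO-KallR peaks. Gaps closed in SUMO-KallR and not in the untagged strain numbered 19, and gaps closed in the untagged strain and not in SUMO-KallR numbered 0. The 93 SUMO-KallR peaks above the arm percentile closed the same 37 gaps. The peaks that closed gaps all had heights of 76.1 or more, above the floor of 25.7, so this count could not change. No floor was set for the untagged list. Within 50 kb of the cnt midpoints, SUMO-KallR closed 35 of 48 gaps and the untagged strain 17. The chromosomes differed here. On I the counts were 10 of 13 gaps for the SUMO-KallR list and 9 for the untagged one, and on II 8 of 11 and 7. On III SUMO-KallR closed 17 of 24 gaps and the untagged strain 1. In the otr of III, 16 gaps of 266 to 745 bp, with a median of 368.5 bp, were closed in SUMO-KallR alone, and together they held 6898 bp, of which 1641 bp lay under untagged peaks.

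The gaps of the right otr of III recurred along its repeat. Sequence from 1110000 to 1130638 aligned to itself 6759 bp further on at 99.94% identity, and most of the WT gaps fell at 4 places of this unit. At 1 place the WT gaps were 318, 364, 414 and 352 bp long, and SUMO-KallR peaks closed all 4. At another they were 373, 458, 340 and 401 bp long, again all 4 closed. The untagged list closed 1 gap of the former place and 0 of the latter. At a further place, of low GC content (27.4% to 27.5%), the gaps were 764, 745 and 739 bp long, and SUMO-KallR closed the last 2 and left 167 bp of the first. The gaps of 872, 929 and 902 bp were closed in none of the copies. There SUMO-KallR left 348, 364 and 362 bp uncovered, and the untagged list 849, 769 and 774 bp. These uncovered stretches of SUMO-KallR were 100% identical to each other over at least 343 bp, and the sequence printed above for the right otr of III is the middle of the second. None of the start positions in these gaps had a 150-base sequence, the length of a read, that occurs only once in the genome. Reads from the copies cannot then be told apart, so the copies are not independent, and the part of read placement in the closing of gaps was not tested.

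**Figure D2:**
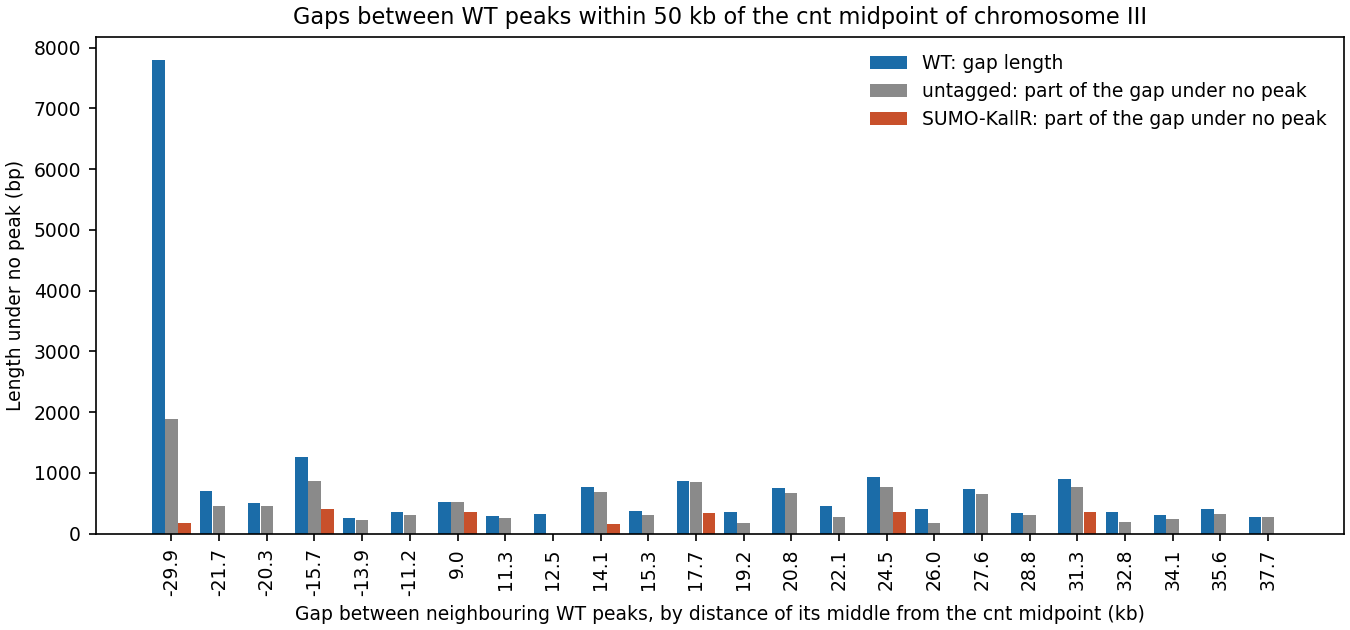
Length in bp under no peak in each gap between neighbouring WT peaks within 50 kb of the cnt midpoint of III, ordered by distance in kb, for WT (the gap itself), the untagged strain and SUMO-KallR. SUMO-KallR left 0 bp in 17 of the 24 gaps, and the 3 gaps of 872, 929 and 902 bp kept 348 to 364 bp.

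On the other chromosomes, each had 1 gap within 50 kb that closed in SUMO-KallR alone. On I this was the gap from 3782867 to 3783157 in the right otr, 291 bp long with 0 bp under untagged peaks. On II it was the gap from 1601629 to 1602295, 667 bp long, with 270 bp under untagged peaks. That gap holds the arginine tRNA gene SPBTRNAARG.06, which only the SUMO-KallR list covered. Beyond 50 kb, the gap of 6485 bp on I between ubr11 and SPATRNAVAL.04 was also closed in SUMO-KallR alone, and untagged peaks covered 6326 bp of it.

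All 44 outer edges of the 22 SUMO-KallR peaks lay outside the WT peaks they held, which follows from every WT peak lying wholly inside its SUMO-KallR peak. The distances ran from 11 to 62000 bp with a median of 850.5 bp, and 16 edges were within 100 bp, 23 within 1000 bp and 7 beyond 10000 bp. Edge shifts against the untagged list are not given here. The median for SUMO-KallR depended on the settings. It was 99.5 bp with scores at or above the median of each list, 491 bp with SUMO-KallR peaks above the arm percentile, 21527 bp after joining of peaks closer than 500 bp and 0 bp after sequence under untagged peaks was taken out. Where that removal cuts both lists at the same untagged edge, a shift of 0 bp is fixed by the cut. In several peaks a short and a long shift stood together, the short one toward the core or a neighbouring repeat and the long one toward the chromosome arm. In bases, the 22 peaks covered 493203 bp, of which 352359 bp were not under WT peaks. Of this gain, 67493 bp lay between WT peaks of the same SUMO-KallR peak, and 12474 bp of the gain lay under no untagged peak.

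**Figure D3:**
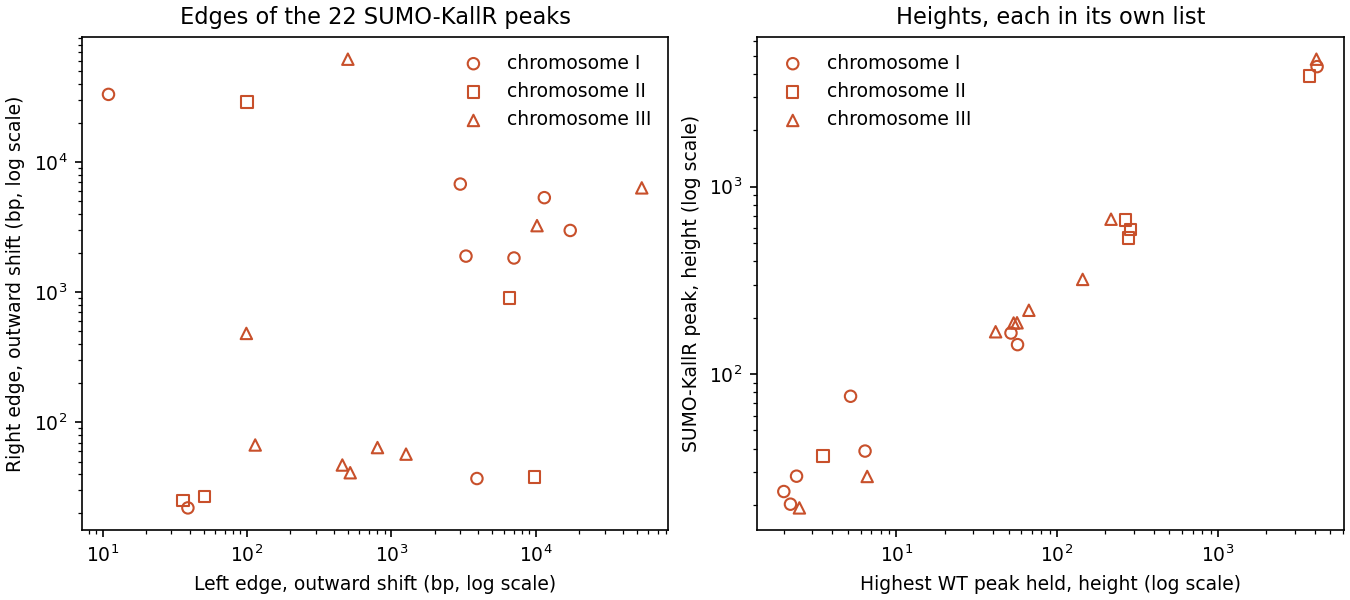
Left, outward shift of the left and right edge in bp (log scales) for each of the 22 SUMO-KallR peaks that hold WT peaks, by chromosome. Right, height of the same peaks against the height of the highest WT peak each holds (log scales), where the 3 core peaks stand alone at the top with 3889.9 to 4789.1 in SUMO-KallR and 3709 to 4098.7 or 4139.3 in WT.

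At the cores, summits lay close to each other on I and II and in opposite imr on III. On I the SUMO-KallR summit at 3776228 lay 36 bp from the WT summit at 3776264, both in the right imr. On II the summit at 1619790 lay 129 bp from the WT summit at 1619919, both in the left imr. On III the WT summit was at 1105152 in the right imr and the SUMO-KallR summit at 1094093 in the left imr, 11059 bp away. The position that mirrors the WT summit in the left imr is 1093842, and the SUMO-KallR summit lay 251 bp from it. The arms of this inverted repeat are 6585 bp long and 99.909% identical, and the 299 bases printed above occur in both. A read from this stretch cannot be assigned to an arm from its sequence alone, so the left and right imr of III cannot be told apart there, and the effect of read placement was not tested.

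Away from the cores, most WT summits lay inside a SUMO-KallR peak whose own summit was elsewhere, as follows from 59 WT peaks in 22 SUMO-KallR peaks. The median distance from a WT summit to the nearest SUMO-KallR summit was 2580 bp, from 8 to 24180 bp, and 11 of 59 were within 100 bp. To the nearest untagged summit the median was 786 bp, from 1 to 23842 bp, and 17 were within 100 bp. In all, 19 WT summits lay nearer to a SUMO-KallR summit and 40 nearer to an untagged one. In the right otr of III the medians were 1358.5 bp to SUMO-KallR and 59.5 bp to untagged summits over 18 WT summits, with 3 and 10 of them within 100 bp. Several WT peaks share a SUMO-KallR peak there, so fewer SUMO-KallR summits were available, and the distances partly follow from that. WT and untagged peaks there had similar places as well as similar summits, while the WT heights of 21.8 to 144.3 and the untagged heights of 19.6 to 155.8 belong to separate lists and were not compared. Seen from the SUMO-KallR list, 18 of the 22 summits lay in a WT peak and 17 in the highest WT peak held. WT peaks made up 140844 of the 493203 bp of these 22 peaks. The same count for untagged summits is not given here.

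**Figure D4:**
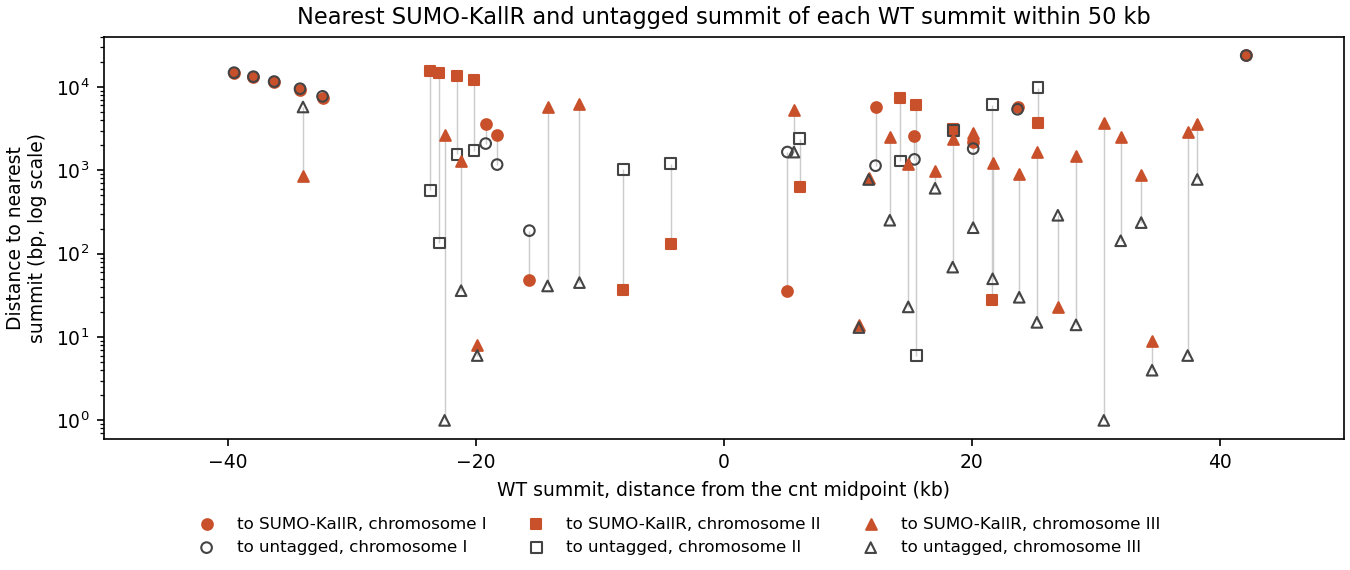
Distance in bp (log scale) from each WT summit within 50 kb to the nearest SUMO-KallR summit (filled) and the nearest untagged summit (open), against the distance of the WT summit from the cnt midpoint in kb, by chromosome. In the right otr of III the untagged summits are the closer ones, with medians of 59.5 bp and 1358.5 bp. Several WT peaks share a SUMO-KallR peak and its single summit there.

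Among the 22 SUMO-KallR peaks that hold WT peaks, the order of heights was close to that of WT. The 3 core peaks held ranks 1, 2 and 3 in both, with I above III in WT and III above I in SUMO-KallR. Of the 10 highest WT peaks, 9 lay in one of the 10 highest SUMO-KallR peaks, where WT peaks in the same SUMO-KallR peak count more than once. Of the 10 highest SUMO-KallR peaks 7 held WT peaks, and of the 28 highest 14 did. Among the 22 SUMO-KallR peaks, 12 were in the highest 25 of the list, 17 in the highest 50 and 19 in the highest 100, and the lowest had rank 378 of 1615. Their median height was 177.65, where the whole SUMO-KallR list had a median of 15.8. Across the 22 peaks the Spearman correlation of the SUMO-KallR height with the height of the highest WT peak held was 0.955. As a description of the background, WT height and the height of the highest overlapping untagged peak had a Spearman correlation of 0.433 across the 59 WT peaks. That value counts every WT peak, and the 0.955 only the highest in each SUMO-KallR peak, so the correlations cannot be compared. The points of both come from 1 library per strain, share its input and repeated sequence, and are not replicates.

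Within 50 kb of the cnt midpoints, 157907 bp lay under SUMO-KallR and not under WT peaks, and 11092 bp of these, 7.02%, lay under no untagged peak. The gain grew with distance from the core as WT coverage fell. SUMO-KallR peaks covered 97.2% to 100% of every 5 kb step, and WT peaks 100% of the first and 0% of the last. In 5 kb steps, both sides and all 3 chromosomes together, the gain was 0 bp up to 5 kb and 315 bp up to 10 kb. It was 3216 bp up to 15 kb and 5033 bp up to 20 kb. It was then 15591, 24202, 24510 and 25449 bp in the steps up to 40 kb, and 29692 and 29897 bp of 30000 in the last 2 steps. The gain that lay under no untagged peak had another course. It was 0, 315, 1819, 1432, 2862 and 3195 bp in the steps up to 30 kb, then 833 and 636 bp, and 0 bp beyond 40 kb. This course is bounded by the sequence that untagged peaks leave free. They covered 26505 and 26263 bp of 30000 in the steps from 20 to 30 kb, and 28802 and 28812 bp in those from 30 to 40 kb. Beyond 40 kb they covered all of both steps, so no other value than 0 bp was possible there.

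By chromosome, the gain within 50 kb was 57317 bp on I, 55125 bp on II and 45465 bp on III. This is the reverse order of the WT coverage of 41659, 43709 and 52341 bp. It follows from the WT coverage, since SUMO-KallR peaks covered similar amounts, 98976, 98834 and 97806 bp. Of the gain, 804 bp on I and 867 bp on II lay under no untagged peak, and 9421 bp on III. More sequence could be gained in this way on III, where untagged peaks covered 75484 bp, against 85216 bp on I and 86399 bp on II. How much of the contrast follows from that was not tested. Most of the gain on III under no untagged peak, 8440 bp, was in the otr. In the otr of I and II, 400 bp and 119 bp were gained in the same way. Over the 3 chromosomes the gain free of untagged peaks fell into 50 stretches with a median of 172.5 bp, and 37 of them were in the otr. The longest, 1186 bp from 1072206 to 1073391, was at the outer end of the left otr of III. Stretches of 667 and 661 bp followed, from 1119964 and from 1126729, in 2 copies of the same repeat place. Of the gained otr sequence 4.21% was unique at the length of a read, against 96.1% of that gained on the flanks. WT peaks already covered all of cnt and, on I and III, all of the imr, so no gain in covered bases was possible there. The 152 bp gained in the imr were on II, none of them under an untagged peak.

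**Figure D5:**
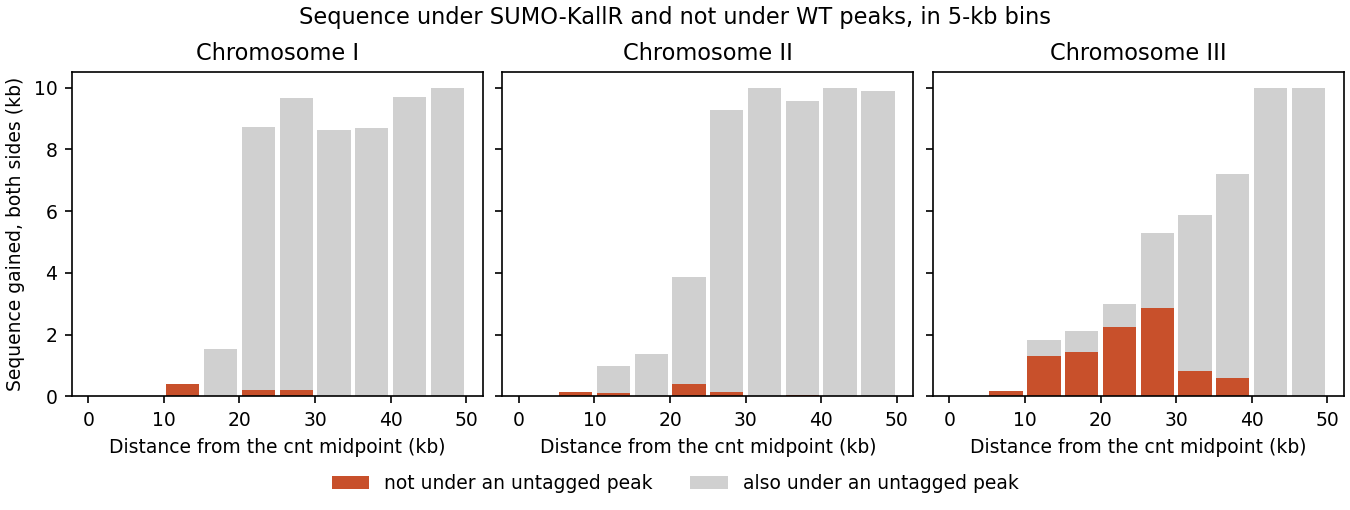
Sequence under SUMO-KallR and not under WT peaks, in kb per 5-kb step of distance from the cnt midpoint, both sides summed, split by whether an untagged peak also covers it. The part not under untagged peaks is largest on III between 10 and 30 kb, with 1300, 1432, 2251 and 2849 bp per step. This part cannot exceed the sequence that untagged peaks leave free in a step.

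Some sequence inside the centromeres stayed free of peaks in SUMO-KallR. There were 11 such stretches between the outer ends of the otr, 3099 bp in all, and WT and untagged peaks covered 0 bp of them. All 16 edges within 100 bp of a WT edge bordered these stretches. On II and III, 1 stretch each spans a run of 100 undetermined bases, where no read can map. The 3 identical stretches of the right otr of III had 35.4% to 35.9% GC.

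The genes beside the centromeres were covered in SUMO-KallR without exception, and nearly so in the untagged strain. Of 56 tRNA genes within 50 kb of the cnt midpoints, 37 lay under a WT peak, 56 under a SUMO-KallR peak and 49 under an untagged peak. Of the 7 that no untagged peak reached, 6 were in cnt or imr and under WT peaks, and the other was SPBTRNAARG.06. Among the 24 protein-coding genes nearest to the centromeres, 4 on each side, all were covered over 100% of their length by SUMO-KallR peaks and 23 by untagged peaks, with 97.2% for rpb1, which encodes the largest subunit of RNA polymerase II. WT peaks reached 4 of them. They covered 65.3% of emc5, of the ER membrane protein complex, 30.3% of rec6, which takes part in meiotic double-strand break formation, 20% of prm1 and 14.1% of rad50, of the MRN complex of break repair. At chk1, the gene of the DNA damage checkpoint kinase on the left of III, coverage was 0% in WT and 100% in both other lists. Coverage of these genes in SUMO-KallR therefore did not set it apart from the strain without CFP-Cnp1.

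Beyond 50 kb, 8 WT peaks remained. They had WT heights of 2 to 6.4 and ranks of 40 to 56, and all lay wholly inside both a SUMO-KallR and an untagged peak. The highest, of 6.4, was at Tf2-8 on I, a copy of the Tf2 retrotransposon, and another of 2.4 at Tf2-3. The SUMO-KallR summit was 55 bp away at Tf2-8 and 1930 bp away at Tf2-3, and the untagged summit 536 and 786 bp away. The peak at ftm5 near the left end of II, of 3.5, had a SUMO-KallR summit 37 bp and an untagged summit 39 bp away. The one at SPATRNAVAL.04 on I, of 5.2, had a SUMO-KallR summit 16 bp away and an untagged summit 1326 bp away. At set3, the gene of a subunit of a histone deacetylase complex, a WT peak of 2.2 had a SUMO-KallR summit at 140 bp and an untagged one at 10612 bp. The peaks at ubr11 and aim29 had heights of 2.7 and 2, SUMO-KallR summits 6863 and 5241 bp away and untagged summits 5186 and 7444 bp away. At rgf1 on III, a WT peak of 2.5 had a SUMO-KallR summit at 3098 bp and an untagged one at 3019 bp.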

How the data were processed

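CFP-Cnp1 ChIP-seq of WT, SUMO-KallR and untagged cells was analysed from the deposited peak lists, 1 per strain. According to their methods and processing notes, the authors used Cutadapt for trimming, Bowtie2 for mapping (builds ASM294v2 and sacCer3), Samtools for removing duplicates, rDNA and mitochondrial reads, and MACS3 for peaks of each library after scaling and spike-in calibration. Stricter background removal followed. The study prints a callpeak command with a control, a fixed extension size and no cutoff, and counted uniquely mapped reads for calibration. Tool versions, the cutoff behind these lists and how reads of identical repeats were placed before peak calling were not found in the sources used here. The deposited score of each peak was divided by 10 and called its height, by the convention of MACS, which no header states. The reference was ASM294v3. All peaks ended within its chromosomes, and its 12571418 bases other than N were counted. Inverted repeats of at least 1000 bp and 95% identity (BLAST+ 2.17.0) set the ends of cnt. On each chromosome the imr ran from cnt to where sequence homologous to another chromosome's outer repeat began, a change from the plan. On II the left imr so defined starts at 1616025 and the repeat arm at 1616671, so the WT summit at 1616097 lies outside it. The otr ended at the outermost stretch of at least 500 bp and 80% identity. Overlaps, edges, summits and bases were counted in Python 3.11.15 and NumPy 2.4.6, and the counting code recovered known values on simulated data. The peaks, lists and settings were chosen with earlier results of these data known. Every WT peak entered the counts. Those described singly were wider than the median, among the 15 highest, at an outer edge, in a SUMO-KallR peak with 2 or more WT peaks or beyond 50 kb. Alternatives were another overlap, score floors, joining, width, removal of untagged sequence and another window. Input libraries have no lists of their own here. Some items are not reported here.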

Additional observations from a re-analysis of the deposited data

How the results depend on the processing

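Of 76 alternative values, 52 were within 1.5 times the reported one. A match of at least 50% of the WT peak and peaks of at least 300 bp changed none of them by more. With scores at or above the median of each list, 30 WT peaks entered and all 30 had a partner, in 14 SUMO-KallR peaks, 24 shared one, 16 of 27 gaps were closed and the median edge shift was 99.5 bp. With SUMO-KallR peaks above the 95th percentile of its arm peaks, a height of 25.7, the shift was 491 bp and 1271 bp under WT peaks were lost. Joining peaks closer than 500 bp left 34 WT peaks, all 34 with a partner, in 8 SUMO-KallR peaks, 29 shared one, and the median edge shift was 21527 bp and the median summit distance 23155.5 bp. Taking out untagged sequence left 28 WT pieces, all 28 with a partner, and then 2 shared one, 1 of 25 gaps was closed, the gain was 804 bp on I, 867 bp on II and 9421 bp on III, the median edge shift was 0 bp and the median summit distance 129 bp. This setting cuts both lists at the same untagged edges, which by itself limits sharing, closing of gaps and edge shifts. Within 25 kb the gain was 10661 bp on I, 6397 bp on II and 7098 bp on III, with 6428 bp not under untagged peaks. The number of gaps closed in the untagged strain alone was 0 in each setting in which it was counted, and that in SUMO-KallR alone was 11 of 27 with scores from the median up and 10 of 31 after joining. No paired analysis was possible because each strain has 1 library. Without read counts or replicates, the lists cannot show whether a closed gap or a wider peak is more than the variation between libraries.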
